A study of Mus musculus with 6 samples.

Results

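The cells described here were the gated tingible body macrophage-like cells of a CITE-seq experiment on CD169-lineage cells, 156 of 12139 cells that could be assigned to a mouse. A cell was taken when C1qa, C1qb and C1qc together had at least 5 unique molecular identifiers (UMIs, counted mRNA molecules), when at least 3 of the 7 genes Pf4, Itga9, Ccl7, Stab1, Tmem37, C3ar1 and Mertk were detected, and when Marco, Cd209b and Il22ra2 together had 0 UMIs. These 13 genes are called the gate. The cells were thus chosen by their own measured transcripts. Of the 2974 assigned cells with 5 or more C1q UMIs, the gate took 156 and left 2818, which are called the remaining C1q cells. Of those left, 2222 had 0 UMIs of Marco, Cd209b and Il22ra2, and 596 had at least 1. All cells were from lymph nodes, the inguinal nodes per the methods of the study, of Cd169Cre/+.Tdtomato fl/fl mice, 2 unimmunized and 2 taken at day 9 after immunization with hen egg lysozyme (HEL). Cre made from the Siglec1 (CD169) locus switches on tdTomato (TOM) by recombination in these mice, and the label therefore records past activity of that locus in a cell or its ancestors rather than CD169 at its surface. Tomato-positive CD11b hi cells were sorted, each mouse was marked with 1 hashtag antibody, and the pooled cells were split over 2 10X captures. The labels give no ages.

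Tingible body macrophages are the phagocytes of the germinal center, named after the remains of dead B cells seen inside them. Apoptotic cells are recognised through phosphatidylserine, either directly or through bridging proteins, by receptors that include MERTK, and C1q can coat dying cells and mark them for uptake. The ingested material is digested in lysosomes, and its cholesterol is exported through transporters such as ABCA1 onto lipid carriers such as APOE.

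The mouse of origin and the surface signal of each cell rested on 10 DNA tags carried by antibodies. They are shown because each condition and each antibody value below was read from them, and the deposited sequences, 5′ to 3′, were as follows, with no part in capitals.
Hashtag 1, unimmunized mouse 1: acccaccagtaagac
Hashtag 2, unimmunized mouse 2: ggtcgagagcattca
Hashtag 3, immunized mouse 1: cttgccgcatgtcat
Hashtag 4, immunized mouse 2: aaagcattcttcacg
CD169: attgacgacagtcat
CD68: ctttctttcacggga
F4/80: ttaacttcagcccgt
CD11c: gttatggacgcttgc
Ly-6c: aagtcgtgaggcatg
Ly-6g: acattgacgcaacta
Each tag is 15 bases long. The hashtags differ from each other at 11 to 13 of them, and the least different pair among all 10 tags at 5.

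The gated cells were unevenly spread over the mice, with 5 in unimmunized mouse 1, 4 in unimmunized mouse 2, 33 in immunized mouse 1 and 114 in immunized mouse 2. Values per mouse are given in this order throughout. Capture 1 held 88 of the cells and capture 2 held 68. Their summed libraries contained 97761, 38362, 430200 and 1877610 UMIs, so that 1 UMI was worth 10.2 CPM (counts per 1000000 UMIs) in unimmunized mouse 1 and 26.1 CPM in unimmunized mouse 2. The median gated cell had 11201, 9744, 12659 and 15794 UMIs, and the median remaining C1q cell 2360, 9635, 10900.5 and 14775. The gated cells were thus deeper than the cells they were compared with above all in unimmunized mouse 1, where 256 of the 308 remaining cells had a UMI of Marco, Cd209b or Il22ra2 and a median of 2076.5 UMIs.

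The gated library of unimmunized mouse 1 stood apart because 1 of its 5 cells held 53550 UMIs, 54.8% of the library. In that cell 85.9% of the hashtag counts were of its own hashtag, and 200 UMIs fell on a list of 13 B cell genes, among them 92 of Igkc, 34 of Cd79a and 24 of Ms4a1. It also held 111 UMIs of 18 cell division genes. The other 8 gated cells of the unimmunized mice had 6950 to 11924 UMIs, 2 to 9 UMIs of the B cell list and no UMI of Cd79a or Ms4a1. A gene with no UMI in that cell would be 2.21 times as high in this library without it. Without the cell Axl was at 588 CPM in place of 266, Cx3cr1 at 543 in place of 245, Mrc1 at 271 in place of 133, Lgmn at 724 in place of 378 and Cd93 at 204 in place of 102. Psap and Cd68 lay below the remaining cells of this mouse with it and above them without it. Counts of called genes over all genes tested that rest on this library are given with and without this cell or this mouse. For most lists, and for some single genes whose call changed, such values are given too. The 4 cells of unimmunized mouse 2 were fewer than the 5 required of a library, so its values are shown but its gated library entered no fit unless stated.

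The gate genes chose the cells, and their levels are a description. C1qa was at 2731, 5161, 5528 and 3734 CPM in gated cells and at 1328, 1458, 1646 and 2036 CPM in the remaining C1q cells. C3ar1, the receptor of the complement fragment C3a, was detected in 119 of the 156 cells (76.3%), and Mertk, the receptor tyrosine kinase for apoptotic cell uptake, in 111 (71.2%). Itga9, an integrin subunit, was detected in 84, Pf4, a chemokine, in 70, Stab1, a scavenger receptor that binds phosphatidylserine, in 68, Tmem37 in 68 and Ccl7, a monocyte-attracting chemokine, in 24. The set was therefore carried by different genes in different cells, and the most common combination, Stab1, C3ar1 and Mertk, accounted for 16 cells. C3ar1 was at 143, 182, 186 and 113 CPM in gated cells and at 12.9, 17.2, 13.7 and 16.7 CPM in the remaining cells. Pf4 varied between the mice, at 81.8, 182, 305 and 62.3 CPM. Stab1 had no UMI in the gated cells of unimmunized mouse 2 and Ccl7 none in those of unimmunized mouse 1, which at their depths allows up to 78.2 and 30.7 CPM (3 counts).

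Most gated cells lay close to the edge of the gate, since 97 of the 156 had exactly 3 of the 7 genes, 46 had 4, 9 had 5, 4 had 6 and 0 had all 7. Just outside lay 215 cells with exactly 2 of the genes. The median C1q count was 129 UMIs in cells with exactly 3 and 108 in those with exactly 2. Ms4a7 was at 226 CPM inside and 113 CPM outside, Apoe at 1842 and 1344 CPM, and Mrc1 at 59.0 and 65.1 CPM. These values pool the mice, and most of the cells were from immunized mouse 2. Within immunized mouse 1 Mrc1 was at 164 CPM inside and 63.8 CPM outside and Apoe at 5374 and 2261 CPM, whereas within immunized mouse 2 Mrc1 was at 41.8 and 64.0 CPM and Apoe at 1247 and 1195 CPM. Pooled over the mice, cells with 4 or more of the genes had 479 CPM of Ms4a7, 6221 CPM of Apoe and 233 CPM of Mrc1. A further 24 cells had at least 3 of the genes and were left out for Marco, Cd209b or Il22ra2, and 29 were left out for fewer than 5 C1q UMIs.

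**Figure D1:**
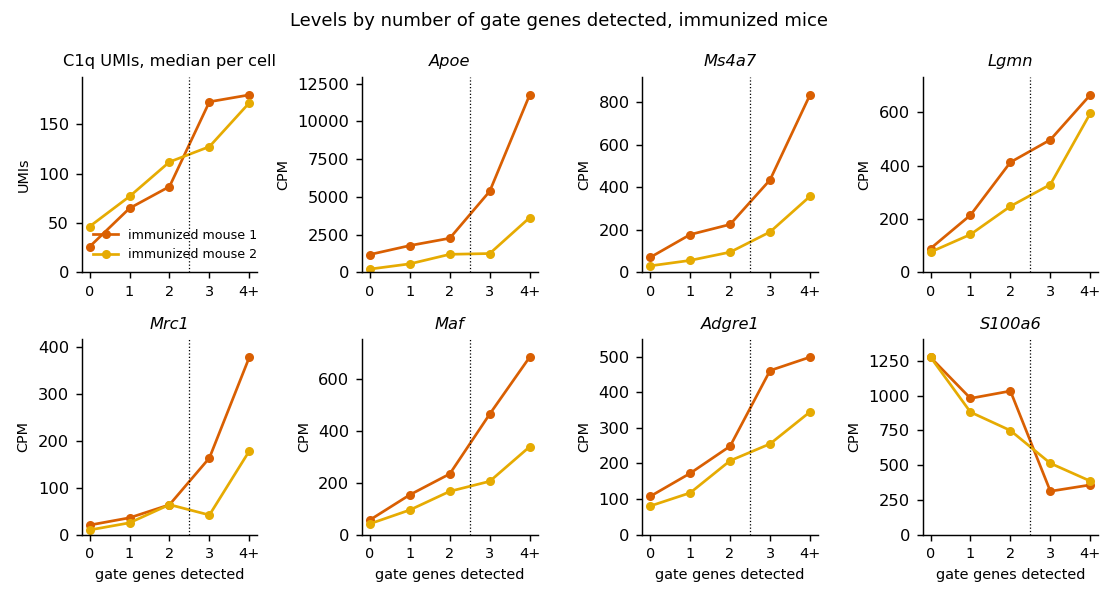
Median C1q UMIs per cell and CPM of 7 genes outside the gate (y axes) against the number of the 7 gate genes detected (x axis), in C1q cells with no Marco, Cd209b or Il22ra2 UMI, with 1 point per immunized mouse and number; the dotted line is the edge of the gate. Apoe was at 216 CPM in cells of immunized mouse 2 with 0 gate genes and 3627 CPM in those with 4 or more, while S100a6 went from 1278 to 385 CPM.

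In the immunized mice the levels of genes outside the gate changed on both sides of its edge. The plot of levels by number of gate genes rests on 335, 102, 37, 16 and 17 cells of immunized mouse 1 with 0, 1, 2, 3 and 4 or more of the genes, and on 1094, 402, 172, 76 and 38 cells of immunized mouse 2. Lgmn, which encodes the lysosomal protease legumain, was at 89.3, 214, 412, 496 and 664 CPM in immunized mouse 1 and at 76.0, 142, 247, 329 and 595 CPM in immunized mouse 2. It rose from step to step below the gate as well as above it. Median depth ranged from 11727 to 15946 UMIs across these groups in immunized mouse 1 and from 14307 to 16031 in immunized mouse 2, and its part in these levels was not tested. S100a6 was at 1276, 981, 1034, 312 and 358 CPM in immunized mouse 1 and at 1278, 882, 750, 513 and 385 CPM in immunized mouse 2. Ccl12 was at 28.8, 87.7, 54.7, 154 and 85.2 CPM in immunized mouse 1 and at 15.8, 31.3, 40.3, 144 and 116 CPM in immunized mouse 2. The steps of both genes thus differed between the mice. Whether the gated cells form a set of their own was not tested.

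The share of gated cells among C1q cells was 1.60% (5 of 313, exact 95% binomial interval 0.521 to 3.69) and 7.02% (4 of 57, 1.95 to 17.0) in the unimmunized mice, and 4.56% (33 of 723, 3.16 to 6.35) and 6.06% (114 of 1881, 5.02 to 7.24) in the immunized mice. The groups overlapped. The mean was 4.31% ± 3.83 (SD, n = 2) in unimmunized and 5.31% ± 1.06 (SD, n = 2) in immunized mice, a difference of 1.00 percentage point (exact two-sided permutation test, p = 1, where 2 against 2 mice cannot go below 0.333). Of all assigned cells, the gated cells made up 0.177% and 0.745% in unimmunized and 0.814% and 2.41% in immunized mice. Here both immunized mice lay above both unimmunized mice, by 1.15 percentage points on average (exact permutation test, p = 0.333, the smallest possible). The intervals cover counting error only, and the CD11b hi TOM+ sort can also set these shares. Thinning each cell to 3000 UMIs before gating turned the difference among C1q cells to -3.43 percentage points.

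**Figure D2:**
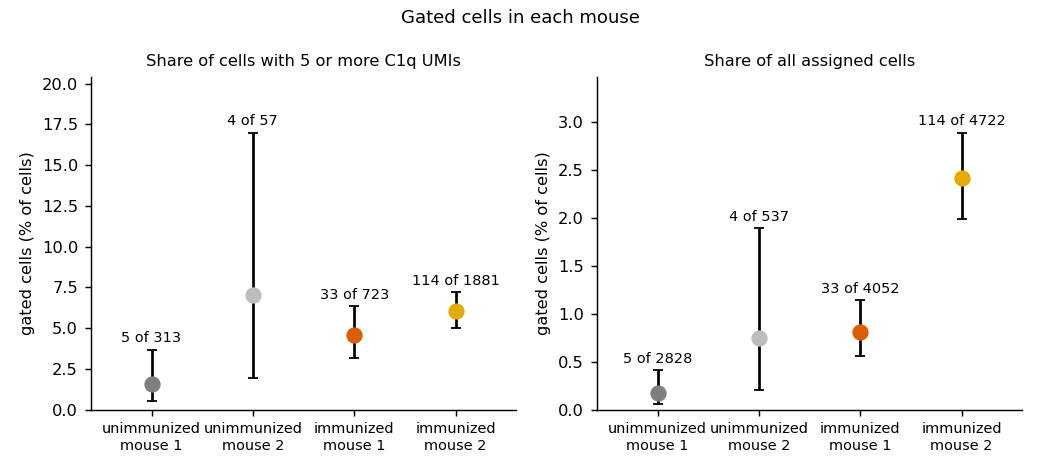
Gated cells as a percentage of C1q cells (left) and of all assigned cells (right) in each of the 4 mice, with exact 95% binomial intervals and the counts above each point. Among C1q cells unimmunized mouse 2 (7.02%) lay above both immunized mice (4.56% and 6.06%), while among all assigned cells the immunized mice (0.814% and 2.41%) lay above the unimmunized mice (0.177% and 0.745%).

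Gated cells were then compared with the remaining C1q cells of the same mice to ask which genes outside the gate differed. Cd93, Mrc1, Ms4a7, Apoe, Itgb5, Lgmn and Abca1, known from resident macrophages, uptake of dying cells, lysosomal digestion and lipid efflux, were between 1.60 and 2.52 higher in gated cells on the log2 scale, and S100a6, S100a4, Plac8 and Ly6c2, which are abundant in monocytes, were lower. With edgeR's quasi-likelihood test, mouse as a block and Benjamini-Hochberg adjustment at 0.05, 66 of the 8837 genes tested passed (0.747%), 45 higher (0.509%) and 21 lower (0.238%). Of these, 28 were higher and 18 lower in 4 of 4 mice, beside 7.51% and 9.99% of all genes tested that were higher or lower in every mouse. The fit used 7 libraries, since the gated library of unimmunized mouse 2 was too small. With the mouse as a block, that mouse added nothing to the difference between the sets. With the immunized mice alone, which leaves out the library with the cell of 53550 UMIs, 345 of 8986 genes passed (3.84%), 209 higher (2.33%) and 136 lower (1.51%), and 65 of the 66 were among them with the same direction. Without the immunized mouse 1 or the immunized mouse 2, 16 and 15 genes passed, 12 and 11 of them among the 66. Without the cells above 40000 UMIs 417 passed, all of the 66 among them. Unimmunized mouse 1 then had 4 gated cells, too few for a library, so this fit held gated libraries of the immunized mice only. Without those cells and with libraries of at least 4 cells 288 of 7296 passed (3.95%). Both sets were cut from the same cells by their transcripts. The test therefore says that a gene outside the gate moved with it in these libraries, beyond the spread that the fit estimated from few mice. Mrc1, Apoe, Lgmn and S100a6 passed in each alternative that gave a value except the fit without the mouse block. Cd93 also passed with either immunized mouse left out but not with a hashtag share of 95% (1.35, adjusted p = 0.51). Adgre1, Cx3cr1, Maf, Itgb5, Abca1, Arhgap19, Tmem26 and Sash1 no longer passed without immunized mouse 1 and without immunized mouse 2, and Ms4a7 no longer passed without immunized mouse 2 (adjusted p = 0.0615). Of 5 genes outside the gate that were taken as further markers of these cells, Ms4a7 and Cx3cr1 rose and Cd68 did not pass. Ccl12 and Axl did not pass in the 7 libraries and passed without the cells above 40000 UMIs and with libraries of at least 4 cells. Ccl12 was lower in the gated cells of unimmunized mouse 1 with or without its cell of 53550 UMIs. Engulfed remains and the position of the cells in the node were not measured, so the name says only that the gate was met. In summed counts, more cells with a transcript and more transcript per cell cannot be told apart.

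**Figure D3:**
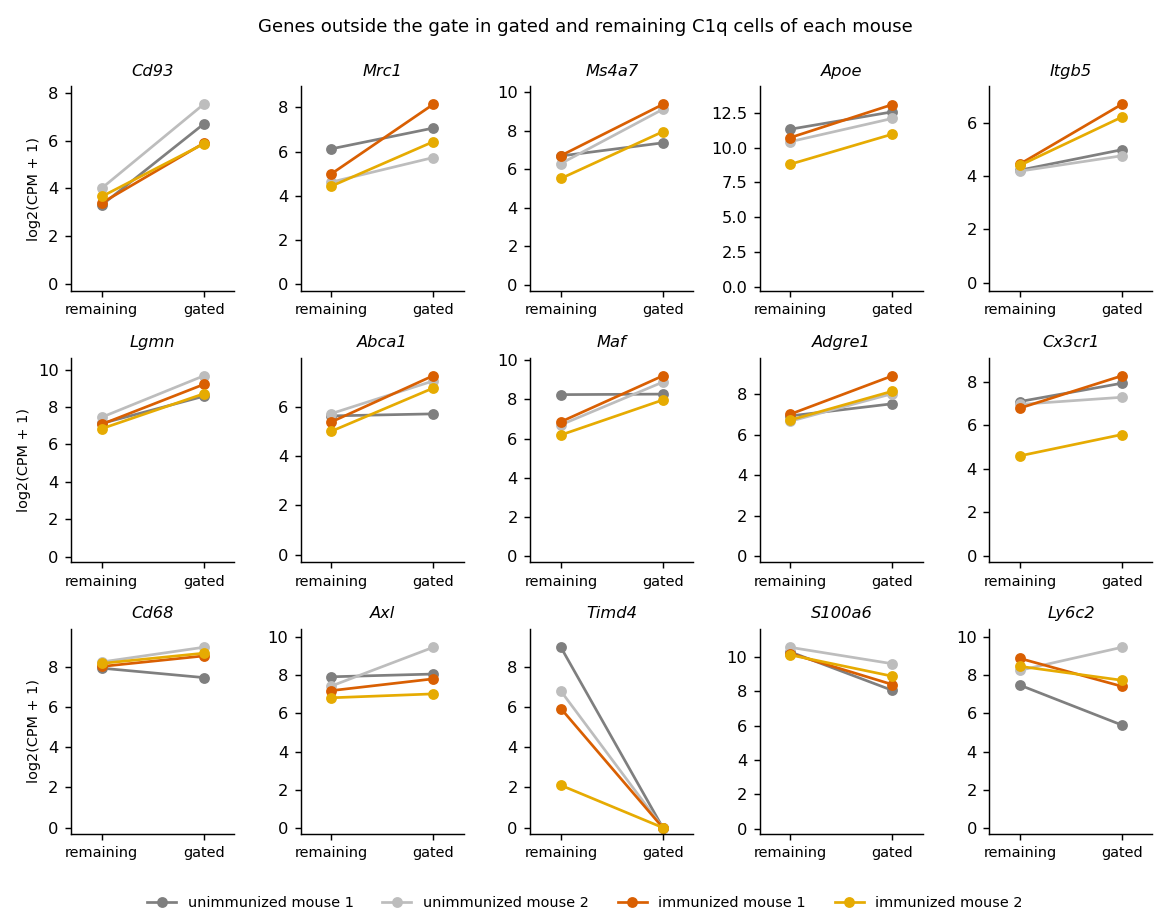
Log2(CPM + 1) of 15 genes outside the gate in remaining and gated C1q cells, with 1 line per mouse. Apoe, Ms4a7, Cd93 and Lgmn were higher in the gated cells of all 4 mice, Timd4 had 0 UMIs in all gated cells, S100a6 was lower in all 4, and Cd68 and Axl did not pass the test in the 7 libraries.

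Of the lists, that of resident macrophage genes held the most genes that passed. Of its 28 genes 22 were tested, 7 rose and 0 fell, with a median log2 fold change of 0.79 beside -0.0059 over all genes tested. Of all genes tested 0.509% rose and 0.238% fell. Mrc1, which encodes the mannose receptor (GRCm38, chromosome 2, 14229392 to 14332057), was at 133, 52.1, 281 and 86.3 CPM in gated and 68.8, 23.6, 30.9 and 20.7 CPM in remaining cells. It was higher in all 4 mice, although the gated value of unimmunized mouse 2 stood below the remaining value of unimmunized mouse 1 (log2 fold change 2.26 ± 0.26 (SE), adjusted p = 0.000116). Ms4a7, a tetraspan gene of macrophages (chromosome 19, 11321039 to 11336146), was at 164, 547, 653 and 244 CPM against 102, 77.3, 103 and 44.8 CPM, and every gated value exceeded every remaining value (2.15 ± 0.26, adjusted p = 0.000154). Adgre1, the gene of F4/80, was at 184, 261, 481 and 284 CPM in gated and 121, 101, 129 and 105 CPM in remaining cells (1.41 ± 0.21, adjusted p = 0.00166). Cx3cr1, the fractalkine receptor, followed the mouse as much as the gate, at 245, 156, 311 and 46.9 CPM against 137, 125, 110.4 and 23.3 CPM. It rose by 1.13 ± 0.19 on the log2 scale (adjusted p = 0.00437) but was lowest in immunized mouse 2 in both sets. It did not pass in capture 2 alone (adjusted p = 0.106), without immunized mouse 1 (0.89, adjusted p = 1) or without immunized mouse 2 (1.24, adjusted p = 0.131). Maf, a transcription factor of resident macrophages, rose by 1.53 ± 0.28, from 301, 103, 115 and 71.7 CPM to 307, 469, 586 and 249 CPM. In unimmunized mouse 1 it hardly differed. Maf did not pass without immunized mouse 1 (0.99, adjusted p = 1), without immunized mouse 2 (1.35, adjusted p = 0.384) or in DESeq2 (1.41, adjusted p = 0.145). Vcam1, an adhesion molecule gene, rose by 0.99 ± 0.20. F13a1, of coagulation factor XIII, also passed, at 0, 26.1, 95.3 and 111 CPM against 27.1, 32.2, 33.1 and 31.2 CPM, although it was lower in both unimmunized mice. Mrc1, Ms4a7, Maf and F13a1 were also called higher in the test between the immunization effects given below. That test had a single unimmunized gated library. Csf1r, the receptor for the macrophage growth factor CSF1, was at 522, 729.9, 679 and 630.1 CPM in gated and 345, 382, 444 and 461 CPM in remaining cells, which did not pass in the 7 libraries (0.51 ± 0.17, adjusted p = 0.276). It passed with at least 4 of the 7 gate genes (0.52, adjusted p = 0.0194), in capture 1 alone (0.58, adjusted p = 0.024) and without the cells above 40000 UMIs (0.47, adjusted p = 0.042). In each of these fits the unimmunized mice had too few gated cells for a library, so the gated libraries were of the immunized mice only. Csf1r also passed without the cells above 40000 UMIs and with libraries of at least 4 cells (0.68, adjusted p = 0.0104). That fit held gated libraries of the unimmunized mice too. With the immunized mice alone, 14 of 23 tested genes of this list rose, and without the cells above 40000 UMIs and with libraries of at least 4 cells 13 of 21, beside 2.33% and 2.17% of all genes tested in these fits.

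Genes of apoptotic cell uptake outside the gate changed in a few members. Of 38 listed genes 31 were tested, 4 rose and 1 fell, with a median log2 fold change of 0.30, beside 0.509% and 0.238% of all genes. With the immunized mice alone 8 of 30 rose and 1 fell, beside 2.33% and 1.51% of all genes. Cd93, a receptor linked to the removal of dying cells (chromosome 2, 148436640 to 148443563), showed the largest rise among the named genes, from 8.83, 15.0, 9.44 and 11.6 CPM to 102, 182, 58.1 and 57.0 CPM (2.52 ± 0.27, adjusted p = 4.62e-05). All gated values exceeded all remaining values. Itgb5, which pairs with the αv integrin to bind bridging proteins on dying cells, was at 30.7, 26.1, 102 and 73.0 CPM against 17.7, 17.2, 20.9 and 20.1 CPM (1.90 ± 0.23, adjusted p = 0.000154), and most of the difference lay in the immunized mice. Cd14 rose by 1.08 ± 0.23. Timd4, a phosphatidylserine receptor of sinus macrophages, had 0 UMIs in all 156 gated cells, against 499, 109, 59.6 and 3.30 CPM in the remaining cells. With 84.8 UMIs expected and a floor of 3 counts over all gated cells, it was at least 28.3-fold lower, and at least 12-fold lower without unimmunized mouse 1. Most Timd4 UMIs of the remaining cells lay in those with Marco, Cd209b or Il22ra2, which the gate keeps out. Against the remaining cells without those transcripts only 4.87 UMIs were expected, a bound of 1.62-fold, Timd4 was too low to be tested, and of 25 genes of this list 4 rose and 0 fell, beside 1.24% and 0.603% of all genes in that comparison. Axl, a receptor of the family of Mertk, was at 266, 704, 223 and 129 CPM in gated and 241, 172, 145 and 112 CPM in remaining cells and did not pass in the 7 libraries (0.30 ± 0.18, adjusted p = 0.764). Without the cells above 40000 UMIs and with libraries of at least 4 cells it rose by 0.72 (adjusted p = 0.00487), and 8 of 27 genes of this list rose, beside 2.17% of all genes. The bridging proteins Gas6 and Pros1 were at 23.2 and 18.6 CPM in gated cells of immunized mouse 1, at 2.66 and 8.52 CPM in those of immunized mouse 2 and had no UMI in those of the unimmunized mice. Mfge8 had 1 UMI in all gated cells, in immunized mouse 2. Cx3cr1, described above, is counted in this list too.

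Few lysosomal genes passed in the 7 libraries. Of 34 genes 33 were tested, 2 rose and 0 fell, with a median of 0.41, beside 0.509% and 0.238% of all genes. Of the 33, 16 were higher and 0 lower in all 4 mice, beside the 7.51% and 9.99% given above. Lgmn (chromosome 12, 102394084 to 102439813) was at 378, 808, 588 and 415 CPM in gated and 138, 174, 134 and 113 CPM in remaining cells. Every gated value lay above every remaining value (1.83 ± 0.19, adjusted p = 2.99e-05). Acp5, which encodes an acid phosphatase, was at 194, 104, 293 and 149 CPM against 96.5, 122, 88.7 and 73.7 CPM (1.25 ± 0.20, adjusted p = 0.00284), but was lower in the gated cells of unimmunized mouse 2. Psap, the most abundant gene of the list, which encodes the precursor of the saposins, stood at 2854, 5917, 3601 and 4324 CPM in gated and 2986, 2894, 2361 and 3166 CPM in remaining cells (0.31 ± 0.16, adjusted p = 0.656). Cathepsin D, from Ctsd, was higher in all 4 mice at 286, 417, 486 and 659.9 CPM against 232, 204, 263 and 326 CPM and did not pass (0.76 ± 0.19, adjusted p = 0.0711). With the immunized mice alone, 13 of 33 rose, and without the cells above 40000 UMIs and with libraries of at least 4 cells 11 of 32, beside the same 2.33% and 2.17% of all genes, among them Psap (0.56, adjusted p = 0.0167) and Ctsd (0.74, adjusted p = 0.00973). Cd68, a lysosomal membrane glycoprotein and general macrophage marker, was at 174, 495, 367 and 404 CPM in gated cells and 241, 298, 256 and 284 CPM in the remaining cells (0.28 ± 0.20, adjusted p = 0.848).

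Of 24 lipid handling genes 21 were tested, 3 rose and 0 fell, with a median of 0.27, beside 0.509% and 0.238% of all genes. With the immunized mice alone 6 of 22 rose, beside 2.33% of all genes in that fit. Without the cells above 40000 UMIs and with libraries of at least 4 cells 6 of 19 rose, beside 2.17%. Apoe (chromosome 7, 19696109 to 19699188) was the most abundant of them, at 6158, 4431, 8859 and 2019.6 CPM in gated and 2592, 1391, 1705 and 451 CPM in remaining cells. It was higher in the gated cells of all 4 mice, although the level itself differed widely between mice and was at 13187 CPM in the gated cells of unimmunized mouse 1 without the cell of 53550 UMIs (1.91 ± 0.19, adjusted p = 2.99e-05). Abca1, the cholesterol exporter, was at 51.1, 130.3, 151 and 107 CPM against 48.3, 51.5, 40.6 and 31.0 CPM (1.60 ± 0.22, adjusted p = 0.000701). The difference was small in unimmunized mouse 1, but without the cell of 53550 UMIs the gated value there was 113 CPM. Trem2, a lipid-sensing receptor, was at 20.5, 0, 34.9 and 80.4 CPM against 8.83, 4.29, 6.25 and 21.2 CPM (1.97 ± 0.26, adjusted p = 0.000516) and had no UMI in the gated cells of unimmunized mouse 2. Pltp, the phospholipid transfer protein gene, was higher in all 4 mice without passing (0.68 ± 0.21, adjusted p = 0.211), and passed without the cells above 40000 UMIs and with libraries of at least 4 cells (0.85, adjusted p = 0.000658).

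Among complement genes besides C1q, 9 of 18 were tested, 1 rose and 1 fell, with a median of 0.34, beside 0.509% and 0.238% of all genes. With the immunized mice alone 4 rose and 2 fell of 9, beside 2.33% and 1.51% of all genes in that fit. C5ar1, the receptor of C5a, rose by 1.75 ± 0.24, at 10.2, 0, 67.4 and 96.9 CPM in gated cells against 15.9, 2.15, 18.5 and 25.4 CPM. It was higher in gated cells of both immunized mice and lower in those of both unimmunized mice, which held 1 and 0 UMIs, and the difference between the conditions did not pass (adjusted p = 0.356). Cfb, factor B of the alternative pathway, fell by 1.01 on the log2 scale, from 197, 213, 587 and 485 CPM to 30.7, 365, 299.9 and 317 CPM, and was higher in gated cells of unimmunized mouse 2. Of 20 chemokine genes outside the gate, 13 were tested and 1 rose, with a median of 0.30, beside 0.509% of all genes. With the immunized mice alone 6 rose and 3 fell of 15, with a median of -0.038. The gene that rose in the 7 libraries was Ccl2, a monocyte chemoattractant, at 10.2, 235, 90.7 and 55.4 CPM against 15.9, 2.15, 24.3 and 15.4 CPM (1.70 ± 0.25, adjusted p = 0.00165). Ccl12 was at 10.2, 1251, 116 and 135 CPM in gated and 107, 70.9, 61.3 and 28.2 CPM in remaining cells (1.22 ± 0.37, adjusted p = 0.196), and in unimmunized mouse 2 most of its UMIs, 43, lay in 1 cell. Cxcl9, an interferon-induced chemokine, was lower in the gated cells of all 4 mice, at 71.6, 52.1, 718 and 1250.0 CPM against 457, 569, 1239 and 1732 CPM, and did not pass (adjusted p = 0.0711). Without the cells above 40000 UMIs and with libraries of at least 4 cells, Ccl12 rose by 1.83 (adjusted p = 2.89e-21) and Cxcl9 fell by 1.19 (adjusted p = 8.95e-07).

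Further genes with a large rise belonged to no list. Arhgap19, a GTPase-activating protein gene, was at 51.1, 26.1, 32.5 and 17.6 CPM against 12.9, 4.29, 6.38 and 2.92 CPM (2.35 ± 0.38). Tmem26 rose by 2.05 ± 0.44 and Sash1 by 1.48 ± 0.23. The gated levels of Tmem26 and Sash1 were 7.99 to 78.2 and 51.1 to 156 CPM, and all 3 genes were higher in all 4 mice.

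**Figure D4:**
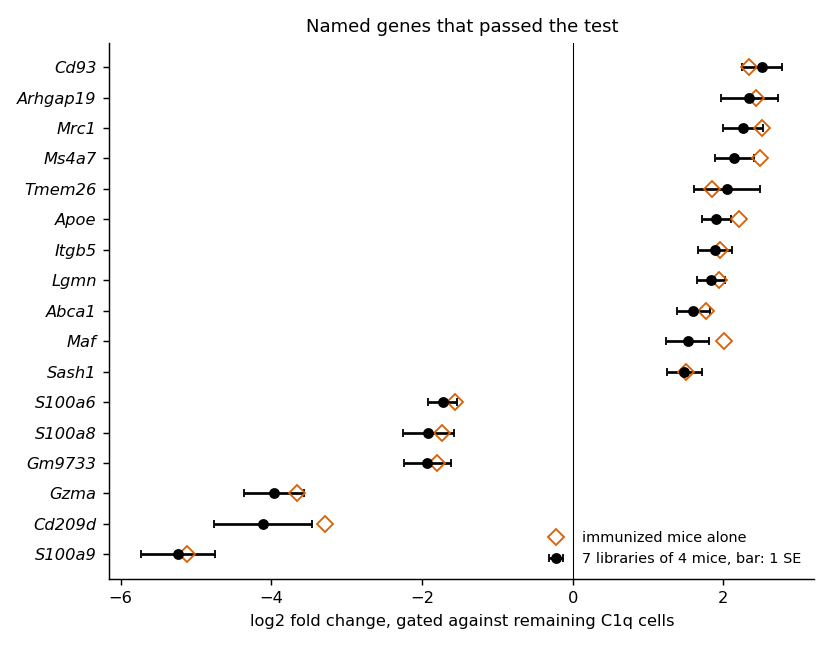
Log2 fold change between gated and remaining C1q cells (x axis) of 17 genes that passed the test, with filled points and bars of 1 SE for the 7 libraries and open diamonds for the immunized mice alone. Unimmunized mouse 2 had no gated library among the 7 and added nothing to these differences. Timd4 and Siglech, with 0 UMIs in gated cells, are not drawn. Cd93 lay at 2.52 and S100a9 at -5.24, and no diamond lay on the other side of 0.

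The genes that fell included those of sinus macrophages, monocytes, neutrophils and natural killer cells. S100a6 (chromosome 3, 90612882 to 90624181), a calcium-binding protein gene, fell from 1259.9, 1518, 1183 and 1115 CPM to 266, 782, 337 and 472 CPM, with every gated value below every remaining value (-1.73 ± 0.20, adjusted p = 0.000109). Of 12 monocyte genes 11 were tested, 2 fell and 0 rose, with a median of -0.35, beside 0.238% and 0.509% of all genes. With the immunized mice alone 3 of 11 fell and 0 rose, with a median of -0.54, beside 1.51% and 2.33% of all genes. Plac8 fell from 1326, 1604, 2357 and 2607 CPM to 143, 599.6, 953 and 1629 CPM (-1.48 ± 0.27) and Ly6c2, which encodes Ly-6C, from 177, 305, 469 and 352 CPM to 40.9, 704, 169.7 and 212 CPM (-1.22 ± 0.22), although Ly6c2 was higher in the gated cells of unimmunized mouse 2. Gated cells still held 839, 2138, 1946 and 2475 CPM of the monocyte list in sum, against 2369, 2682, 3939 and 3771 CPM, and without the cell of 53550 UMIs the gated cells of unimmunized mouse 1 were at 1493 CPM. Ccr2, a receptor of inflammatory monocytes, was at 583, 756, 583 and 453 CPM in gated cells against 542, 593, 812 and 640.5 CPM and did not pass (adjusted p = 0.673).

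Of 9 genes of medullary sinus macrophages outside the gate, 4 were tested, 3 fell and 1 rose, beside 0.238% and 0.509% of all genes. With the immunized mice alone 2 of 5 fell and 1 rose, beside 1.51% and 2.33% of all genes. The call of Cd209d was lost in 7 of 19 alternatives. Cd209d had 1 UMI each in gated cells of unimmunized mouse 1 and immunized mouse 2, against 264, 77.3, 19.7 and 0.750 CPM in the remaining cells, and Cd5l had 0 UMIs in all gated cells, at least 7.96-fold lower, or 1.90-fold without immunized mouse 1. Spic, a transcription factor gene of iron-recycling macrophages, rose by 1.09 ± 0.24. It was lower in gated cells of unimmunized mouse 1 (40.9 against 57.7 CPM) and higher in those of the other mice. Siglech, known for plasmacytoid dendritic cells and also expressed by some macrophages, had 0 UMIs in gated cells and was at least 5.10-fold lower, or 2.53-fold without unimmunized mouse 1. Cells with Marco, Cd209b or Il22ra2 were kept out of the gated cells but not out of the remaining ones, and against the 2222 remaining cells without those transcripts Timd4, Cd209d, Cd5l and Siglech were too low to be tested. Cd5l was then at least 2.99-fold lower, and for Siglech too few UMIs, 1.88, were expected for a bound. In that comparison 104 of 5643 genes passed (1.84%), 51 of them among the 66.

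Markers of other cell types were measured in the same libraries. Of the 11 neutrophil genes, S100a8 and S100a9 were the 2 tested and both fell in the 7 libraries, with 0, 0, 2.32 and 15.4 CPM and 0, 0, 2.32 and 1.07 CPM in gated cells. The difference of S100a8 turned to 0.90 at a hashtag share of 95% and to 0.40 at 50 C1q UMIs, and S100a8 did not pass in 6 further alternatives, among them DESeq2 (adjusted p = 0.172), nor S100a9 at 50 C1q UMIs (-0.65, adjusted p = 0.89) or in 3 others. The list summed to 0, 26.1, 6.97 and 22.9 CPM in gated cells against 211, 15.0, 49.3 and 105 CPM, higher in gated cells of unimmunized mouse 2, and Ngp, Camp, Ltf and Ly6g were at 0. Natural killer cell genes summed to 10.2, 0, 9.30 and 7.46 CPM against 401, 511, 117 and 33.5 CPM, lower in every mouse. Of the 4 natural killer cell genes tested 1 fell, Gzma, granzyme A, by 3.97 on the log2 scale, beside 0.238% of all genes. Over 21 alternatives its log2 fold change ranged from -9.87 to -0.91, and it did not pass in 3 of them. B cell genes summed to 2179, 600, 353 and 87.9 CPM in gated cells and to 935, 432, 434 and 120 CPM in the remaining cells, and the most abundant gene in gated cells was Ighm, or Igkc in unimmunized mouse 1. In unimmunized mouse 1, 200 of the 213 UMIs behind the gated value lay in the cell of 53550 UMIs, and the other 4 gated cells were at 294 CPM. None of the 5 B cell genes tested passed in the 7 libraries. With the immunized mice alone 1 of 3 fell, beside 1.51% of all genes. Without the cells above 40000 UMIs and with libraries of at least 4 cells 1 of 3 fell, Igkc, beside 1.78%. T cell genes summed to 123, 78.2, 44.2 and 43.1 CPM in gated cells against 623, 88.0, 90.3 and 23.3 CPM, so they were lower in gated cells of 3 of the 4 mice and higher in immunized mouse 2. The most abundant T cell gene in gated cells was Cd4, which macrophages can also express, or, in immunized mouse 2, Il7r. Of the 12 dendritic cell genes 10 were tested and 1 fell, Il4i1, with a median of -0.95, beside 0.238% of all genes. With the immunized mice alone 4 of 10 fell, with a median of -2.03, beside 1.51% of all genes. Without the cells above 40000 UMIs and with libraries of at least 4 cells 2 of 5 fell, Dpp4 and Il4i1, beside 1.78%. Clec9a, of type 1 dendritic cells, was at 0, 0, 2.32 and 18.1 CPM in gated cells and 31.2, 45.1, 9.98 and 22.2 CPM in the remaining cells (-0.68 ± 0.38, adjusted p = 0.732). The part of RNA from other cells in these results was not tested.

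Several lists showed no gene past the threshold in 7 libraries. They were type I interferon response (20 tested, median -0.11), MHC class II and costimulation (11, median 0.12), cell division (10, median 0.49), dampening effectors (9, median 0.04), germinal center B cells (4, median -0.22) and dissociation stress (14, median -0.22). Without the cells above 40000 UMIs and with libraries of at least 4 cells, the cell division median turned to -0.128 over 5 genes. The type I interferon median turned to 0.0482 over 20. MHC class II genes were among the most abundant transcripts of gated cells. Cd74, the invariant chain, was at 23936, 24764, 30258 and 25604 CPM against 15419, 19991, 23425 and 25087 CPM, and H2-Eb1 at 11426, 14389, 15126 and 10845 CPM against 6402, 10351, 10911 and 11074 CPM. Mki67, a proliferation marker, was at 40.9, 0, 11.6 and 16.0 CPM in gated and 8.24, 6.44, 14.2 and 17.8 CPM in remaining cells (0.04 ± 0.40). The cell division list summed to 1187, 235, 135 and 152 CPM in gated cells, and 111 of the 116 UMIs of unimmunized mouse 1 came from its cell of 53550 UMIs. Of 8 inflammatory effector genes tested 1 rose, Cd38, a surface enzyme (1.12 ± 0.20), beside 0.509% of all genes. With the immunized mice alone, where 2.33% of all genes rose and 1.51% fell, 4 of 15 dissociation stress genes rose and 1 fell, 2 of 11 MHC class II and costimulation genes fell, and of 10 dampening effectors 1 rose and 1 fell.

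The reporter transcript and the lineage gene did not pass the test. The Tomato transcript was at 0, 0, 2.32 and 6.92 CPM in gated and 3.53, 2.15, 6.38 and 5.96 CPM in remaining cells (-0.20 ± 0.56), at most 6.92 CPM in any library although the cells were sorted for TOM. Siglec1 was at 20.5, 52.1, 32.5 and 38.9 CPM against 27.1, 10.7, 15.2 and 31.4 CPM (0.42 ± 0.27, adjusted p = 0.788).

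The shares of cells with a transcript were compared after every cell was thinned to 3000 UMIs, which kept all 147 gated and 2355 of 2457 remaining C1q cells of the immunized mice. B cells, taken as cells with at least 3 UMIs of Cd79a, Cd79b and Ms4a1 and no C1q, served as background, at a median of 8306 UMIs against 15594 in gated cells. Apoe was detected in 93.9% of gated, 67.0% of remaining and 41.7% of B cells of immunized mouse 1, and in 74.6%, 31.5% and 31.0% in immunized mouse 2, where the share in remaining cells was close to that in B cells, the background. Lgmn was detected in 78.8%, 26.1% and 19.2% of these cells in immunized mouse 1 and in 60.5%, 24.6% and 2.38% in immunized mouse 2. The shares of Maf were 69.7%, 24.8% and 0.833% and then 53.5%, 18.1% and 2.38%. Those of Ms4a7 were 66.7%, 21.9% and 4.17% and then 36.0%, 9.01% and 9.52%. In immunized mouse 2 the share in remaining cells was thus close to that in B cells, of which this mouse held fewer than immunized mouse 1. Those of Mrc1 were 48.5%, 7.18% and 0% and then 19.3%, 5.11% and 0%, and 0 of 162 B cells over both mice allow a share of up to 1.85%. Each of these 5 genes was detected in a larger share of gated than of remaining cells of both mice at equal depth. Before thinning, over both mice, Apoe was detected in 85.0%, 62.1% and 53.2% and Mrc1 in 51.7%, 14.7% and 1.08%. Over both mice Timd4 was detected in 0%, 2.89% and 1.23%, where 0 of 147 gated cells allow a share of up to 2.04%.

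Surface antibody signal was a readout that the gate did not use. It was measured as the centred log ratio of each cell, the natural log of an antibody's count plus 1 minus the mean over the 6 antibodies, and averaged per mouse. F4/80 was at 0.572, -0.459, 0.383 and 0.0195 in gated cells and -0.120, -0.515, -0.238 and -0.282 in remaining cells, higher in 4 of 4 mice by 0.418 ± 0.295 (SD, n = 4; exact sign-flip test over mice, p = 0.125, adjusted 0.188). CD11c was at 2.06, 1.19, 1.13 and 1.61 against 0.0297, 0.687, 0.844 and 1.41, also higher in 4 of 4 mice, by 0.755 ± 0.858 (p = 0.125, exact test). CD169 was at -0.808, -0.0571, -0.702 and -0.767 in gated cells and 0.636, 0.0854, -0.364 and -0.739 in remaining cells, lower in 4 of 4 mice by a mean of -0.488 ± 0.650 (p = 0.125, exact test), and by -0.169 without unimmunized mouse 1. Without that mouse CD11c was higher by 0.331 and CD68 lower by a mean of -0.276. The median CD169 count was 3, 12, 4 and 4 per gated cell and 38, 17, 5 and 4 per remaining cell. CD68 was at -1.59, -1.27, -0.818 and -0.987 against 0.0780, -0.436, -0.706 and -1.11, higher in 1 of 4 mice, by a mean of -0.623 ± 0.805 (exact p = 0.375). Ly-6c was at 1.47, 3.10, 1.78 and 2.05 against 0.962, 2.26, 2.10 and 2.48, higher in both unimmunized and lower in both immunized mice, with a mean of 0.149 ± 0.626 (exact p = 0.625). Ly-6g was lower in 4 of 4 mice by a mean of -0.211 ± 0.145 (exact p = 0.125). With 4 mice this test cannot go below 0.125, so none of the 6 could pass 0.05. Against the remaining cells without Marco, Cd209b and Il22ra2, F4/80 and CD11c were higher in 4 of 4 mice, by 0.403 ± 0.200 and 0.339 ± 0.404. CD169 was then higher in 1 of 4 mice, by a mean of -0.0879 ± 0.444, CD68 in 2 of 4, by a mean of -0.135 ± 0.410, Ly-6g in 1 of 4, by a mean of -0.155 ± 0.224, and Ly-6c in 0 of 4, by a mean of -0.365 ± 0.216. At 50 C1q UMIs F4/80 was higher in 4 of 4 mice by 0.419, and CD11c in 1 of 4 by a mean of 0.179. CD169 and CD68 were then each higher in 2 of 4 mice, by means of -0.159 and -0.169. The number of mice with a higher signal thus moved with the processing. On log2 mean counts CD169 was higher in 1 and F4/80 in 3 of 4 mice, with the gate on thinned cells CD169 in 2, F4/80 in 3 and CD11c in 3, and at a hashtag share of 95% CD169 in 1 and CD11c in 2.

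**Figure D5:**
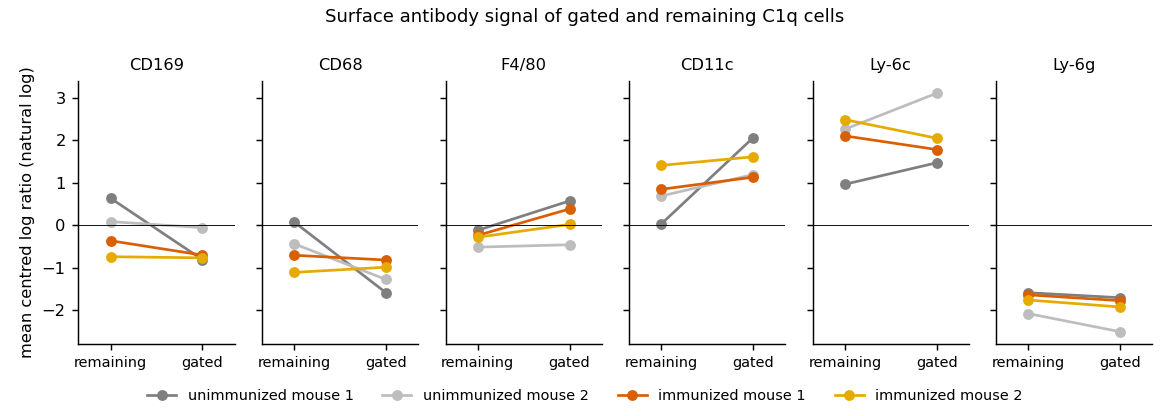
Mean centred log ratio (natural log, y axis) of 6 antibodies in remaining and gated C1q cells, with 1 line per mouse. F4/80 and CD11c were higher in the gated cells of all 4 mice, by means of 0.418 and 0.755, and CD169 was lower in all 4, by a mean of -0.488, with the steepest line in unimmunized mouse 1; against remaining cells without Marco, Cd209b and Il22ra2 CD169 differed by a mean of -0.0879, and the counts of mice moved with the processing.

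Immunized and unimmunized gated cells were compared to ask what changed by day 9. In edgeR's quasi-likelihood test 0 of 10430 genes passed (0% called), while 1037 had an unadjusted p under 0.05. The unimmunized side of this comparison was the single library of unimmunized mouse 1, which is assumed to vary like the other libraries, and the median over all genes was 0.28 rather than near 0. The 5 genes with the smallest p were Cd83, Tmem39a, Socs2, Mcm5 and Mir155hg, all lower in immunized mice. Cd83, an activation marker, was at 327, 26.1, 27.9 and 32.5 CPM, and all 32 of its UMIs in unimmunized mouse 1 came from the cell of 53550 UMIs, as did 18 of 18 for Socs2, 13 of 13 for Mcm5, 13 of 13 for Mir155hg and 17 of 20 for Tmem39a. Without the cells above 40000 UMIs, that one and some remaining C1q cells, and with unimmunized mouse 2 let in, 0 of 8284 genes passed, and 843 had an unadjusted p under 0.05. The count depended on the method, since DESeq2 called 82 of 10430 genes with the cell, a fit of the gated libraries alone called 22 and a fit with no filter on low counts 323. C3ar1 was at 143, 182, 186 and 113 CPM, with overlapping groups. C1qb was at 2281, 3988, 5881 and 4176 CPM, higher in both immunized mice than in both unimmunized mice. Both genes belong to the gate, so these levels are a description. For the 6 antibodies the exact permutation test gave an adjusted p of 1 each, but with 2 against 2 mice it cannot go below 0.333 before adjustment, so none could pass. CD68 was 0.528 higher in immunized mice, or 0.0762 at a hashtag share of 95%.

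The test of the difference between the immunization effects in gated and in remaining cells called 158 of 10430 genes (1.51%), 67 higher (0.642%) and 91 lower (0.872%). The unimmunized gated side of this test was again the single library of unimmunized mouse 1, which is assumed to vary like the other libraries. The make-up of the remaining cells also differed between the conditions. Those with a UMI of Marco, Cd209b or Il22ra2 were 256 of 308, 25 of 53, 216 of 690 and 99 of 1767. The part of this shift in the genes called was not tested. The 13 gate genes were in this test, and Pf4 and Ccl7 were among the genes called higher. As they chose the cells their calls are a description, and 156 of the 158 were outside the gate, 65 higher and 91 lower. Without the cells above 40000 UMIs and with unimmunized mouse 2, 24 passed, 24 higher and 0 lower and none of them a gate gene, 14 of them among the 158 and 13 with the same direction. With DESeq2 9 passed, and without the mouse block 0. Ccl8, a monocyte chemoattractant, had 0 UMIs in gated cells of both unimmunized mice and was at 941 and 161 CPM in those of the immunized mice. In the remaining cells it was at 1530.0, 741, 493 and 24.4 CPM, so it was at least 49.9-fold lower in gated than in remaining cells of unimmunized mouse 1, or 22.5-fold with the UMIs of the cell of 53550 left out, and at least 9.47-fold lower in unimmunized mouse 2, and higher in gated cells of both immunized mice. Cbr2 and Folr2, a folate receptor gene of resident macrophages, also had 0 UMIs in unimmunized gated cells. In unimmunized mouse 1 they were at least 4.74- and 3.41-fold lower than in remaining cells, or 2.14- and 1.54-fold with the UMIs of that cell left out, while in unimmunized mouse 2 only 0.329 and 1.48 UMIs were expected, too few for a bound. They were at 60.4 and 46.5 CPM in gated cells of immunized mouse 1 and 3.73 and 4.26 CPM in those of immunized mouse 2. All 3 still passed without the cells above 40000 UMIs and with unimmunized mouse 2. Among the genes that went the other way, Ebf1, a B cell transcription factor, and Rrm2, of DNA synthesis, were high in unimmunized mouse 1 alone, where 26 of 27 and 12 of 12 UMIs came from that cell.

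The 2 immunized mice, which held 147 of the 156 cells, differed from each other in ways that limit any mean over them. Gated cells of immunized mouse 1 had more Apoe (8859 against 2020 CPM), Pf4 (305 against 62.3 CPM), Cx3cr1 (311 against 46.9 CPM), Mrc1 (281 against 86.3 CPM) and Selenop (1655 against 473 CPM). Those of immunized mouse 2 had more Ccl5, a lymphocyte attractant (3686 against 149 CPM), Saa3, an acute phase gene (1136 against 188 CPM), and Il1b (717 against 114 CPM). The remaining C1q cells differed in the same sense for Apoe (1705 and 451 CPM), Cx3cr1 (110.4 and 23.3 CPM) and Ccl5 (600 and 1790 CPM), but not for Pf4 (6.12 and 3.86 CPM) to that degree. With 1 library on each side these differences have no test.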

How the data were processed

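Per the methods of the study, the authors aligned reads to mm10-3.0.0 and made the deposited UMI counts per cell with Cell Ranger 4.0.0 count and aggr (the version per the submitters' processing notes), and counted tags with CITE-seq-count. No source used here says whether aggr scaled both captures to equal depth. The deposited features include Hy10 and Tomato. Coordinates were taken from GENCODE M21 on GRCm38 (mm10), with 32235 of 32287 features matched by gene ID. Every value was computed here from those counts.

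Of 18662 barcodes, those above 25% mitochondrial UMIs were dropped (17237 left), then those whose barcode sequence occurred in both captures (621 sequences; 16000 left), then those without hashtag counts (15588 left) and 3449 in which no hashtag had 80% and 10 counts, which left 12139. Doublets were removed by this hashtag rule only, so doublets within a mouse remain, and no doublet caller was run. Counts were summed per mouse and set. Sums of at least 5 cells were fitted with edgeR 4.0.16 in R 4.3.3 (TMM, filterByExpr, quasi-likelihood test, Benjamini-Hochberg at 0.05), with the mouse as a block because both sets came from the same animal. The 13 gate genes were left out of the comparison of the 2 sets and kept in both fits with immunization. Immunized and unimmunized gated libraries were compared in a cell means model over both sets, and the difference between the effects by an interaction with the mouse block. DESeq2 1.42.0 was an alternative. Adjusted p-values refer to edgeR unless stated. They rest on a spread between libraries that edgeR estimates over all genes together as well as for each gene. With so few mice, a small value does not mean that the mice had the same direction. Unimmunized mouse 2 had no gated library in the main fit. With the mouse as a block it therefore added nothing to the difference between the sets. Shares and antibodies were tested by exact tests over mice (scipy 1.17.1). The fit of gated against remaining cells and that of immunized against unimmunized gated cells were also run on simulated counts. These had 1 fixed spread for all genes. The interaction was not simulated.

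The members and gene lists were chosen with earlier results of these data known. Named were the gate genes, genes of the study's text, the 12 largest rises and 8 largest falls with at least 20 CPM in 1 set and 1 direction in every mouse, the 3 largest interactions in each direction, the 5 smallest p-values where fewer genes passed, the 10 most abundant genes and, of each list, the 4 most abundant and those called. Gas6, Pros1, Mfge8, Ctsd, S100a4, Retnla and unexpressed markers were added after their values were seen. One gene that met this rule is not reported here.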

Additional observations from a re-analysis of the deposited data

Results flagged for a closer look

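Cells that met the gate were also found among barcodes that the comparisons did not use. Of 255 barcodes with at least 5 C1q UMIs whose sequence occurred in both captures, 20 met the gate (7.84%, with a median of 28659 UMIs per gated barcode). Of 1406 in which no hashtag reached 80% and 10 counts, 72 did (5.12%, median 25757.5 UMIs), and of 68 without hashtag counts 0 did, which allows a share of up to 4.41%. Among the cells used the share was 5.25%. These barcodes carry no mouse and hence no condition.

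The test of a difference between the immunization effects in gated and remaining cells called 158 genes, 156 of them outside the gate and the gate genes Pf4 and Ccl7, which chose the cells. The largest fitted interaction log2 fold changes were 17.61 for Ccl8, 15.26 for Cbr2 and 14.20 for Folr2 in 1 direction and -11.28 for Rrm2, -9.86 for Ebf1 and -9.13 for Pakap_ENSMUSG00000038729 in the other. Each of these genes had libraries with 0 UMIs, so the values depend on the prior count and are no bounds. The unimmunized gated side of this fit was the single library of unimmunized mouse 1. Rrm2, Ebf1 and Pakap_ENSMUSG00000038729 were at 123, 276 and 51.1 CPM in the gated cells of unimmunized mouse 1. Without the cells above 40000 UMIs and with unimmunized mouse 2, Ebf1 no longer passed (-5.73, adjusted p = 0.779 in edgeR's quasi-likelihood test), while Ccl8 did (17.11, adjusted p = 5.78e-40).

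The Ly-6c antibody differed between gated and remaining cells in opposite directions by condition, by a mean of 0.677 in the 2 unimmunized mice and of -0.378 in the 2 immunized mice (centred log ratio, natural log). This difference was not tested. Against the remaining cells without Marco, Cd209b and Il22ra2 the antibody was lower in 4 of 4 mice, by a mean of -0.365 ± 0.216 (SD, n = 4).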

How the results depend on the processing

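Depth and cell number set the limits: at most 9 unimmunized gated cells carried each comparison with immunization, and 1 of them held 54.8% of its library. The share among C1q cells (immunized minus unimmunized, 1.00 point) turned to -0.0457 at 10 C1q UMIs, -3.43 in cells thinned to 3000 UMIs, -0.983 in capture 1 alone and -11.5 at 50 C1q UMIs, and ranged from -1.71 to 3.72 with 1 mouse left out. Gated against remaining cells, 66 genes became 153 with at least 2 of the 7 genes, 407 with at least 4, 39 at 10 C1q UMIs, 357 at 50, 325 without cells with lymphocyte transcripts, 417 without cells above 40000 UMIs, 223 and 109 in captures 1 and 2, 104 against cells without Marco, Cd209b and Il22ra2, 37 with DESeq2, 173 without a filter on low counts, 117 with libraries of at least 4 cells, 288 with these and no cell above 40000 UMIs, and 15 to 345 with 1 mouse left out. Without the replicate block, which pairs both sets of a mouse, 1 gene passed. The gate on thinned cells called 98 genes with 26 of the 66, and a hashtag share of 95% called 67 with 33 of the 66. Every gene shared between these calls and the 66 kept its direction. In the settings listed below that left no unimmunized gated library of 5 cells, these counts rest on gated libraries of the immunized mice only. For immunized against unimmunized gated cells, 0 became 1 with at least 2 of the 7 genes, 82 with DESeq2, 323 without a filter, 22 with gated libraries alone, 1 with libraries of at least 4 cells and 0 to 105 with 1 mouse left out. A block is not possible there, since mice are nested in conditions. For the interaction, 158 became 79 at 10% mitochondrial UMIs, 60 with at least 2 of the 7 genes, 83 against cells without Marco, Cd209b and Il22ra2, 9 with DESeq2, 0 without the replicate block, 50 with libraries of at least 4 cells and 24 with these and no cell above 40000 UMIs. Ly-6c between the sets (0.149) turned to -0.365 against cells without Marco, Cd209b and Il22ra2, to -0.159 at 50 C1q UMIs and to -0.130 on the log2 scale, and ranged from -0.0831 to 0.344 with 1 mouse left out. For immunized minus unimmunized antibodies, CD169 turned to 0.128 and Ly-6g to -0.151 in thinned cells, F4/80 to -0.159 and CD11c to 0.365 at a hashtag share of 95%, where CD68 was 0.0762, and F4/80 to -0.0125 in capture 1. With 1 mouse left out, CD169 ranged from -0.677 to 0.0744, CD68 from 0.373 to 0.684, F4/80 from -0.371 to 0.660, CD11c from -0.688 to 0.178, Ly-6c from -1.19 to 0.444 and Ly-6g from -0.143 to 0.657. Mki67 (0.04 between the sets) turned to -0.49 at a hashtag share of 95%, -0.27 with at least 4 genes, -0.015 in thinned cells, -0.26 without cells with lymphocyte transcripts, -0.23 without cells above 40000 UMIs, -0.21 and -0.23 in captures 1 and 2, -0.55 at 50 C1q UMIs, -0.016 without a filter, and -0.26 without cells above 40000 UMIs and with libraries of at least 4 cells. With 1 mouse left out Mki67 ranged from -0.23 to 0.39 and Tomato from -0.19 to 0.047. Gm9733 turned to 0.17 in thinned cells, and S100a8 to 0.90 at a hashtag share of 95% and 0.40 at 50 C1q UMIs. The cause was not tested. Both comparisons with immunization could not be fitted at a hashtag share of 95%, with at least 4 genes, at 50 C1q UMIs, in thinned cells, in 1 capture, or without lymphocyte-transcript cells, cells above 40000 UMIs or unimmunized mouse 1, since no unimmunized gated library of 5 cells was left, nor the interaction without either immunized mouse.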

Other observations

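Retnla, a secreted protein gene of alternatively activated macrophages, had 0 UMIs in all gated cells, where 32.4 were expected from the remaining C1q cells, at least 10.8-fold lower. Without unimmunized mouse 1 only 2.27 UMIs were expected, fewer than the floor of 3 counts, so no bound can be given for the other mice.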
